A study of Mus musculus with 6 samples.

Results

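The transcripts described here encode EpCAM and 9 proteins of adherens junctions, desmosomes and hemidesmosomes, 10 genes in all of 48577 in the count tables. They were measured in epithelial cells sorted from digested lungs of C57BL/6 mice that carry Miwi2tdTomato, a reporter in which tdTomato fluorescence marks expression of Piwil4, the gene of the Piwi protein MIWI2. Every mouse gave a tdTomato-positive and a tdTomato-negative fraction, both without the leukocyte antigen CD45 and with EpCAM on the surface, so both groups carry the reporter and passed the same EpCAM gate. There were 3 tdTomato-positive and 3 tdTomato-negative libraries from 3 mice, with no treatment named, and age and sex are not given in the sources used here. The labels call both fractions multiciliated cells, but the protocol names no gate for cilia.

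Membership was set by the role of each protein, with 1 exception, but with earlier results of these data known. Dst was chosen by its lower counts in the tdTomato-positive libraries of these same data, so its difference between fractions is given as a description with no test. Epcam was included as the sorting marker. The 6 libraries held 5330584 to 6326395 reads in genes, and 3 reads in a library corresponded to 0.475 to 0.585 CPM, the read count scaled by library size and TMM factor. All 10 genes had reads in every library and passed the filter on low counts, which left 13175 genes to test. Among the libraries 1 was unlike the rest: on the leading principal component, which held 37.7% of the variance, the tdTomato-positive sample of mouse 1 scored -79.4 while the remaining 5 scored -7.80 to 35.2. Piwil4 had 599, 605 and 701 reads in the tdTomato-positive libraries and 227, 156 and 234 in the tdTomato-negative ones, and tdTomato had 37, 16 and 18 reads against 0 in each.

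Adherens junctions join epithelial cells through E-cadherin, whose cytoplasmic tail holds beta-catenin, which in turn holds alpha-catenin and through it the actin cortex. Desmosomes use desmosomal cadherins, plakoglobin and desmoplakin to couple keratin filaments of neighbouring cells, while hemidesmosomes use integrin alpha-6/beta-4, the collagen XVII transmembrane protein and the plakin BPAG1 to fix keratin to the basement membrane. In the airway, hemidesmosomes are best known in basal cells, which anchor the pseudostratified epithelium, and beta-catenin and plakoglobin also have roles in Wnt signalling.

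The 9 genes other than Dst were listed by role, with earlier results of these data known. Among them, the transcripts that differed most between the fractions were those of integrin beta-4 and plakoglobin. Both had more reads in the tdTomato-positive library of every mouse. Neither passed the edgeR quasi-likelihood test with Benjamini-Hochberg adjustment over all 13175 genes (called at an adjusted p under 0.05), and both passed when the mouse was added to the model as a block. The catenins, desmoplakin, E-cadherin, EpCAM, integrin alpha-6 and collagen XVII passed in neither model. In the model without the mouse edgeR called 0 of these 9 genes, with 2 at an unadjusted p under 0.05, DESeq2 called 1 and limma-voom 0. Over all genes tested that edgeR model called 0.622%. With the mouse as a block it called 2 of the 9, against 3.15% of all genes. The median log2 fold change (tdTomato-positive over tdTomato-negative) of the 10 genes was 0.17, and that of all genes tested was 0.03. The 10 include Dst, chosen by its fall, so their median is a description only.

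**Figure D1:**
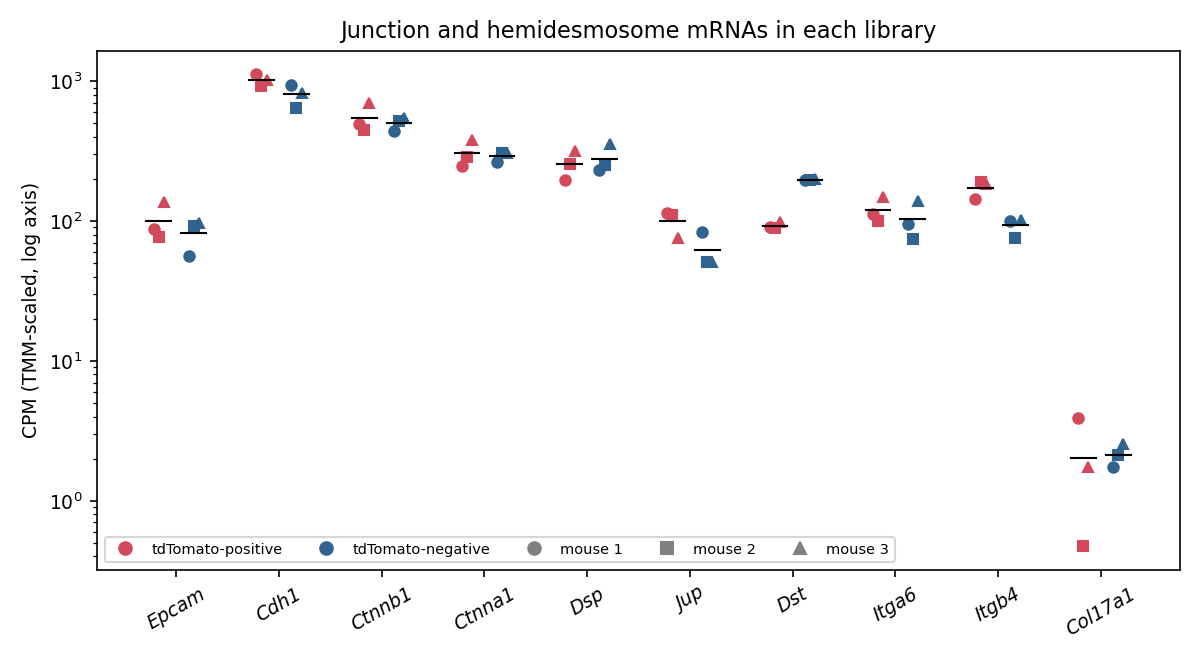
CPM of each gene on a log axis, 1 point per library (tdTomato-positive left, tdTomato-negative right of each gene name, mice by symbol), with lines at group means. Dst points of the tdTomato-positive libraries (89.7 to 98.1 CPM) lie below those of the tdTomato-negative libraries (195.2 to 199.3 CPM), and Itgb4 points lie above (143 to 191 against 76.1 to 103 CPM).

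Epcam, on chromosome 17 (87635979 to 87651129, GRCm38, plus strand), encodes the homophilic adhesion molecule used for the sort. It was at 87.5, 77.1 and 138 CPM in the tdTomato-positive libraries of mice 1, 2 and 3, against 56.7, 92.6 and 96.7 CPM in the tdTomato-negative ones. The ranges overlapped and mouse 2 ran opposite to mice 1 and 3. The log2 fold change was 0.30 ± 0.27 (± SE, by edgeR, adjusted p = 0.72). Runs without 1 library or 1 mouse gave 0.006 to 0.559, the lowest without the tdTomato-positive library of mouse 3. Cldn7, a claudin that binds EpCAM, was named after its values were seen. Cldn7 averaged 28.0 ± 8.14 CPM in tdTomato-positive and 15.2 ± 6.88 CPM in tdTomato-negative libraries (± SD over 3 libraries a group; by edgeR, adjusted p = 0.42).

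Cdh1, the E-cadherin gene on chromosome 8 (106603351 to 106670246), had the highest level of the group. It was at 1120, 920.5 and 1027 CPM in tdTomato-positive libraries, against 942, 647 and 823 CPM in tdTomato-negative ones. Each mouse had more in its tdTomato-positive library, by 0.25, 0.51 and 0.32 on the log2 scale, but the highest tdTomato-negative library exceeded the lowest tdTomato-positive one. The log2 fold change was 0.35 ± 0.18 (± SE; by edgeR, adjusted p = 0.533, and 0.159 with the mouse as a block).

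Ctnnb1, which encodes beta-catenin (chromosome 9, 120929216 to 120960507), was at 494, 445 and 697 CPM in tdTomato-positive libraries and 444, 517 and 548 CPM in tdTomato-negative ones. Ctnna1, which encodes alpha-E-catenin, the link to actin, was at 246, 289 and 380 CPM against 266, 309 and 308 CPM. In both genes the tdTomato-positive library of mouse 3 was the highest of the 6 and the other libraries were intermixed. Their log2 fold changes were 0.12 ± 0.19 and 0.05 ± 0.19 (± SE; by edgeR, adjusted p = 0.861 and 0.94). Leaving out that library gave -0.10 for Ctnnb1 and -0.14 for Ctnna1. Ulk4 and 4930593C16Rik overlap Ctnnb1 on the opposite strand, and the strand setting of the counting is not given in the sources used here.

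Of the 28 other cadherin, catenin and nectin genes found in the tables, 20 were tested and edgeR called none, with 4 at an unadjusted p under 0.05; DESeq2 called 0. With the mouse as a block none was called either. Their median log2 fold change was 0.03. Ctnnd1, which encodes p120-catenin and steadies cadherins at the membrane, averaged 88.9 ± 13.3 CPM in tdTomato-positive and 87.2 ± 32.8 CPM in tdTomato-negative libraries (± SD over 3 libraries a group). The smallest p values of the list were those of Nectin1 and Ptprf. Nectin1, a nectin of low abundance here, had 1, 7 and 1 reads in tdTomato-positive libraries against 10, 18 and 18 in tdTomato-negative ones (edgeR adjusted p = 0.279). Ptprf, a receptor tyrosine phosphatase, averaged 272 ± 77.5 CPM against 193 ± 15.0 CPM (± SD over 3 libraries a group; by edgeR, adjusted p = 0.42).

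Dsp, which encodes desmoplakin, the plakin that anchors keratin in desmosomes (chromosome 13, 38151294 to 38198577), was at 198, 256 and 318 CPM in tdTomato-positive libraries and 233, 253 and 354 CPM in tdTomato-negative ones. Within each fraction the order of the mice was the same, and the difference within a mouse was at most 0.24 on the log2 scale. The log2 fold change was -0.12 ± 0.22 (± SE; by edgeR, adjusted p = 0.875), and with library size in place of TMM factors it was 0.14, where the median of all genes moved to 0.29.

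Jup encodes plakoglobin, a paralog of beta-catenin found in both desmosomes and adherens junctions (chromosome 11, 100368958 to 100397763, minus strand). It was at 115, 111 and 76.1 CPM in the tdTomato-positive libraries of mice 1, 2 and 3, against 83.6, 50.9 and 51.3 CPM in the tdTomato-negative ones. All 3 mice had more in the tdTomato-positive library, by 0.46, 1.11 and 0.56 on the log2 scale, while the groups overlapped through the tdTomato-positive library of mouse 3 and the tdTomato-negative library of mouse 1. The log2 fold change was 0.70 ± 0.25 (± SE; by edgeR, adjusted p = 0.33; 0.59, with 0.42, without the tdTomato-positive library of mouse 1), and with the mouse as a block it was 0.71 ± 0.18 (± SE; by edgeR, adjusted p = 0.0413). Omitting mouse 1 from the block model gave adjusted p 0.0124, omitting mouse 2 gave 0.176 and omitting mouse 3 gave 0.369 (edgeR). The log2 fold changes in these runs were 0.826, 0.513 and 0.784. The stretch of 250 bases before the RefSeq start of Jup is shown (GRCm38.p6, chr11:100397791-100398040, minus strand, printed 5′ to 3′). Jup was picked for this as 1 of the 2 genes called in the block model among the 9 other than Dst. Capitals mark matches to the GC box GGGCGG or its complement CCGCCC, of which there are 2, and the stretch has no E-box (CACCTG or CAGGTG).
Jup: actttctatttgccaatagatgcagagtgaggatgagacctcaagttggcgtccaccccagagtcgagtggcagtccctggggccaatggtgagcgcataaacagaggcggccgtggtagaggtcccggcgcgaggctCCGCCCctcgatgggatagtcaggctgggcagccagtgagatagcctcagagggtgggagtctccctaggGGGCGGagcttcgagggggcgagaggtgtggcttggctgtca

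Of the 15 other desmosome genes 8 were tested and edgeR called none, with 0 at an unadjusted p under 0.05; DESeq2 called 0 and the block model 0. Dsg2, the desmoglein of simple epithelia, averaged 114 ± 13.5 CPM in tdTomato-positive and 117 ± 6.71 CPM in tdTomato-negative libraries (± SD over 3 libraries a group; by edgeR, adjusted p = 0.942). Pkp2, a plakophilin that binds desmoplakin, averaged 102 ± 33.2 against 116 ± 26.6 CPM (± SD over 3 libraries a group; by edgeR, adjusted p = 0.822). The smallest p values were those of Pkp3, another plakophilin, at 6.65 ± 2.10 against 3.36 ± 0.807 CPM (± SD over 3 libraries a group; by edgeR, adjusted p = 0.49), and Ppl, periplakin, at 177 ± 33.7 against 149 ± 24.1 CPM (± SD over 3 libraries a group; by edgeR, adjusted p = 0.683). The keratinocyte desmoglein Dsg3 had no read in any tdTomato-positive library and 4, 4 and 3 reads in the tdTomato-negative ones, too few to test.

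Dst encodes dystonin, a giant plakin whose epithelial form BPAG1-e links keratin to hemidesmosomes and whose longer forms bind actin and microtubules (chromosome 1, 33908225 to 34308661, plus strand). It was at 90.5, 89.7 and 98.1 CPM in tdTomato-positive libraries, against 195.8, 195.2 and 199.3 CPM in tdTomato-negative ones. Each group was tight and they did not overlap. As Dst was chosen by its fall, its separation and the steadiness below follow in part from that choice and test nothing. The share of all genes without overlap and lower in tdTomato-positive libraries is not reported here. The 3 mice differed by -1.11, -1.12 and -1.02 on the log2 scale, the narrowest spread between mice of the 10 genes, and the fitted log2 fold change was -1.08 ± 0.15 (SE). Omitting any 1 library, or both libraries of any 1 mouse, gave between -1.13 and -1.06 (-1.06 without the tdTomato-positive library of mouse 1), and with library size in place of TMM factors it was -0.83. The summed markers of alveolar type 2 cells (549 to 1060 CPM in tdTomato-positive against 6040 to 7380 CPM in tdTomato-negative libraries) and of basal cells (1.01 to 2.06 against 10.5 to 18.4 CPM) were also lower, and their part in the Dst value was not tested. As in any bulk sample, fewer cells that carry a transcript and less of it per cell cannot be told apart.

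GENCODE M21 gives Dst 20 transcripts, which the gene-level counts do not separate. The short epithelial form starts inside the gene, at 34160330, with transcripts of 8788 and 8961 bases, together with 1 of 16340 bases, while 3 transcripts of 17212 to 23279 bases start at 34011813 or 34011825 and 1 of 23201 bases at 33908225. RefSeq stretches of 250 bases before a start in each region (GRCm38.p6, plus strand, printed 5′ to 3′) are shown because either start could feed the Dst count. Capitals mark the GC box GGGCGG or CCGCCC and the E-box CACCTG or CAGGTG, searched on both strands. The upstream stretch, chr1:34011345-34011594, has 4 GC boxes, 1 E-box and 68.8% G+C. The internal stretch, chr1:34160010-34160259, has neither motif and 45.2% G+C.
Dst upstream start: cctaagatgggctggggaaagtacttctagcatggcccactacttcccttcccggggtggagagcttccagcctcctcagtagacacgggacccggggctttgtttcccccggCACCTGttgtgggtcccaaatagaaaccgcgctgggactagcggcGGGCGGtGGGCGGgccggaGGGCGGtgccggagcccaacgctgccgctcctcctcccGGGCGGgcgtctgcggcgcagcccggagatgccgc
Dst internal start: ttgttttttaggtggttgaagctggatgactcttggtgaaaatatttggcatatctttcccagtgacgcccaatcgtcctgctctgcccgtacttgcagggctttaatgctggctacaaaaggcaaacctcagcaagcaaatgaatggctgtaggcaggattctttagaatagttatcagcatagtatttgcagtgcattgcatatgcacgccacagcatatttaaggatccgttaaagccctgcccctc
Of 32851 RefSeq stretches of this length, 32.7% hold a GC box and 17.2% such an E-box. CCAAT or ATTGG, also searched, occurs in 33.8% of them, with 0 matches in the upstream Dst stretch, 1 in the internal one and 2 in that of Jup. RefSeq stretches were matched for 6 of the 10 genes. Several small genes lie within Dst on the opposite strand, among them A930005N03Rik and Gm28631, and their reads cannot be separated from those of Dst without the strand setting.

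Itgb4 encodes the integrin beta-4 chain, whose long cytoplasmic tail binds plectin and BPAG1 in hemidesmosomes (chromosome 11, 115974709 to 116008412, plus strand). It was at 143, 191 and 186 CPM in tdTomato-positive libraries, against 101, 76.1 and 103 CPM in tdTomato-negative ones. The groups did not overlap, as was true with tdTomato-positive higher for 8.29% of all genes tested, and every mouse had more in its tdTomato-positive library, by 0.51, 1.33 and 0.85 on the log2 scale. The log2 fold change was 0.90 ± 0.19 (± SE; by edgeR, adjusted p = 0.0662), a 1.86-fold difference. With the mouse as a block the value was 0.90 ± 0.17 (± SE; by edgeR, adjusted p = 0.00684), and DESeq2 without the block gave an adjusted p of 0.00622. Without the tdTomato-positive library of mouse 1 the log2 fold change was 1.02 (edgeR adjusted p = 0.0338). This was the only 1 of the 9 such omissions without the block in which Itgb4 was called, and the other 8 gave adjusted p of 0.13 to 0.52. Omitting mouse 1 from the block model gave adjusted p 4.63e-05, omitting mouse 2 gave 0.0285 and omitting mouse 3 gave 0.295 (edgeR). The log2 fold changes in these runs were 1.073, 0.684 and 0.918. B230344G16Rik overlaps Itgb4 on the opposite strand.

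Itga6 encodes the alpha-6 chain, the partner of beta-4 and also of beta-1 (chromosome 2, 71745616 to 71858416). It was at 112, 99.8 and 148 CPM in tdTomato-positive libraries and 94.7, 74.9 and 140 CPM in tdTomato-negative ones. The groups overlapped and mouse 3 was highest in both. The log2 fold change was 0.22 ± 0.24 (± SE; by edgeR, adjusted p = 0.783). Col17a1, the collagen XVII gene (chromosome 19, 47646344 to 47692094), was close to the limit of counting. It had 23, 3 and 11 reads in tdTomato-positive libraries and 9, 11 and 13 in tdTomato-negative ones, so no difference was detectable at this depth (log2 fold change -0.07 ± 0.73, ± SE; by edgeR, adjusted p = 0.984), and with library size in place of TMM factors its sign turned (0.15).

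**Figure D2:**
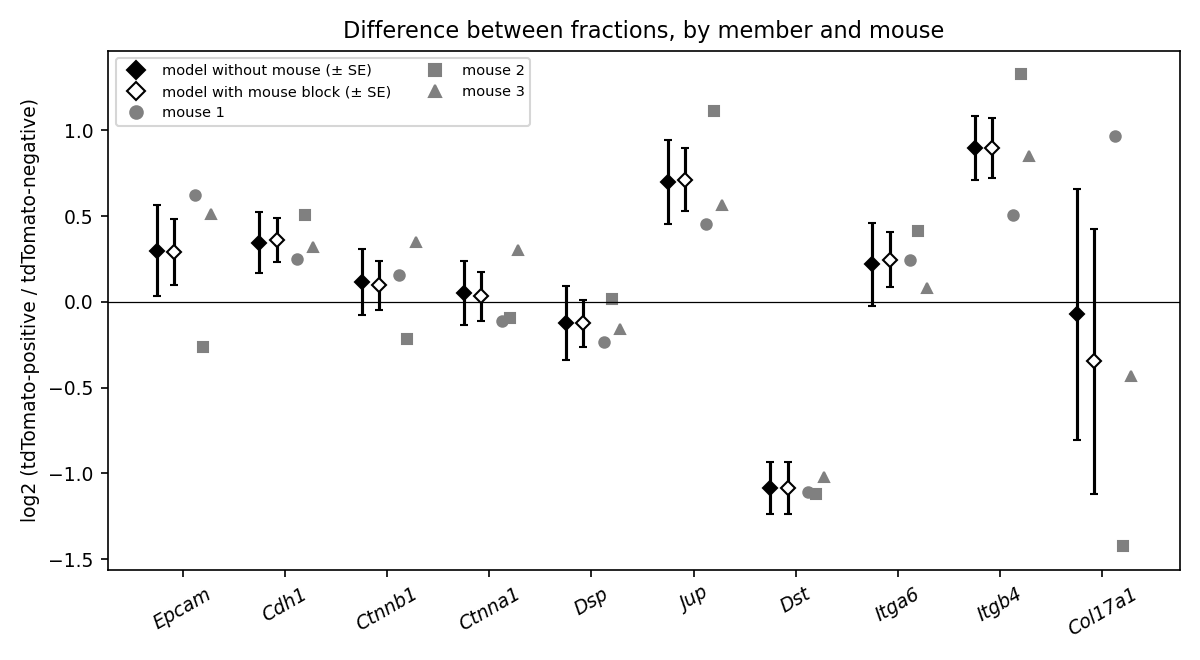
Log2 of tdTomato-positive over tdTomato-negative for each gene, with the estimate of the model without the mouse (filled diamond), the model with it (open diamond), both ± SE, and the ratio in each mouse (grey symbols, 1 per mouse). Jup and Itgb4 symbols lie above 0 in all 3 mice, and Dst symbols lie between -1.12 and -1.02.

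The ratio of Itgb4 to Itga6 within a library does not depend on the scaling between libraries. It was calculated per kb of exon and was chosen after the values were seen. It was 1.64, 2.47 and 1.62 in the tdTomato-positive libraries and 1.37, 1.31 and 0.945 in the tdTomato-negative ones. The groups did not overlap and the ratio was higher in 3 of 3 mice (two-sided exact permutation p = 0.1, the smallest that 3 against 3 allows). The ratio of Jup to Ctnnb1, likewise chosen afterwards, was 0.188, 0.2 and 0.088 in tdTomato-positive libraries and 0.152, 0.0794 and 0.0755 in tdTomato-negative ones. It was higher in 3 of 3 mice with overlapping groups (two-sided exact permutation p = 0.2, not adjusted for the 2 ratios computed). As both pairs were chosen by their values, these p values describe the separation and are no test. The permutation also moved libraries without regard to the mouse.

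**Figure D3:**
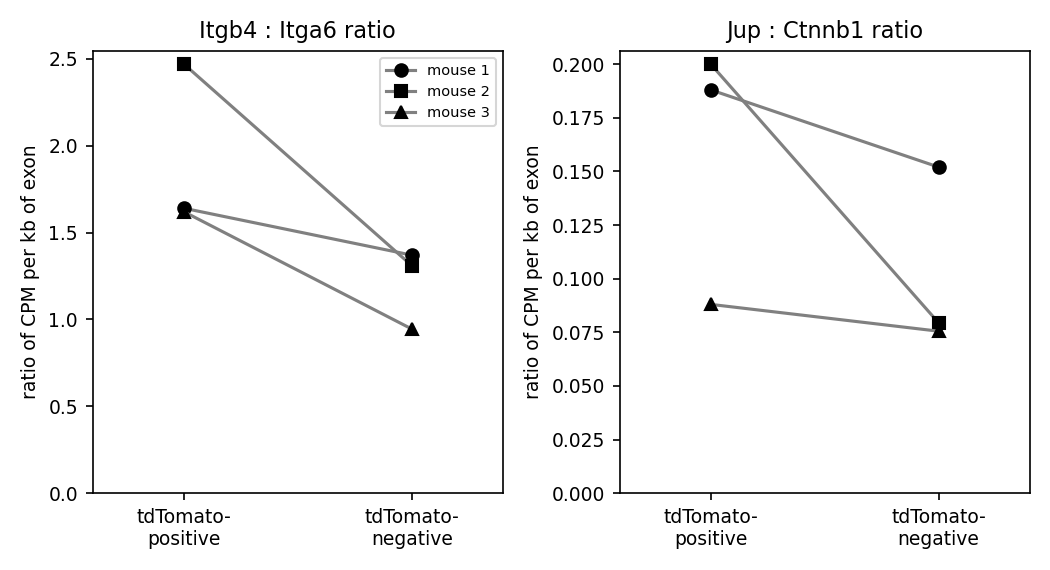
Ratio of CPM per kb of exon for Itgb4 over Itga6 and for Jup over Ctnnb1, tdTomato-positive left and tdTomato-negative right, with a line for each mouse. All lines are higher at tdTomato-positive, and the steepest is mouse 2 in both panels.

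Per kb of exon, E-cadherin and beta-catenin transcripts led the group in both fractions and collagen XVII came last. Cdh1 averaged 223 CPM per kb in tdTomato-positive and 176 in tdTomato-negative libraries, and Ctnnb1 105 and 96.9. Ctnna1 (47.5 and 45.8) and Epcam (45.9 and 37.3) overlapped in both fractions. Dsp averaged 26.6 and 29.0 CPM per kb. Itgb4 averaged 24.7 and 13.3 CPM per kb, and Jup 15.6 and 9.62. Itgb4 was above Jup within each of the 6 libraries, with ranges that were apart in the tdTomato-positive fraction and overlapped in the tdTomato-negative one. The range of Itgb4 overlapped that of Dsp in tdTomato-positive libraries and lay below it in tdTomato-negative ones. Itga6 (13.3 and 11.4) overlapped Jup in both fractions. Dst was at 2.25 and 4.78 CPM per kb over an exon length of 41.2 kb summed over all its transcripts, so a library with only the short form would have a higher level over the bases it uses. Col17a1 was at 0.339 and 0.355.

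The genes most similar in pattern were found by the Pearson correlation of log2 CPM over the 6 libraries, which include 2 of each mouse, among 4359 genes whose log2 CPM averaged 5 or more. For Dst these were Npc2 (r = 0.996), Mbip (0.990) and Wwp1 (0.986). For Itgb4 they were Ccdc65 (r = 0.995), Glb1l2 (0.993) and Tmem94 (0.986), and for Jup Dusp18 (r = 0.996), Dcp1b (0.995) and Pik3c2b (0.994). With 6 libraries and so many candidates such values are descriptive only.

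Plakins and microtubule partners were listed because Dst belongs to the spectraplakins. Of 8 tested, edgeR called none, with 2 at an unadjusted p under 0.05; DESeq2 called 0. The block model called Mapre3 (EB3, a microtubule plus-end protein), higher at 161, 187 and 121 CPM in tdTomato-positive against 112, 91.1 and 85.0 CPM in tdTomato-negative libraries (block log2 fold change 0.69; edgeR adjusted p = 0.0288). That call was lost when mouse 2 (edgeR adjusted p = 0.116) or mouse 3 (0.319) was omitted. The block log2 fold changes were then 0.515 and 0.774. Macf1, the other mammalian spectraplakin, averaged 559 ± 99.6 CPM against 642 ± 36.3 CPM (± SD over 3 libraries a group; by edgeR, adjusted p = 0.705). Plec, the plectin that binds integrin beta-4, was at 139, 150 and 112 CPM in tdTomato-positive against 110, 64.5 and 84.0 CPM in tdTomato-negative libraries (log2 fold change 0.63 ± 0.22, ± SE; by edgeR, adjusted p = 0.313, and 0.0714 with the block).

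Of 31 other integrin, tetraspanin, laminin and basement membrane genes 23 were tested, and edgeR called 1, lower. Itga9, which encodes the alpha-9 chain that pairs with beta-1, was at 3.55, 7.91 and 13.3 CPM in tdTomato-positive libraries against 40.9, 35.9 and 55.4 CPM in tdTomato-negative ones. The groups were far apart and it fell in every mouse (log2 fold change -2.41 ± 0.41, ± SE; by edgeR, adjusted p = 0.0254, and 8.82e-05 with the block). Without the block, omitting a single library or a whole mouse ended the call in 7 of 9 cases, with adjusted p up to 0.276, as did library size in place of TMM factors (0.0507). The call held without the tdTomato-positive library of mouse 1 (edgeR adjusted p = 0.0174) or of mouse 3 (0.0254). It also held in the block model without any 1 mouse (edgeR adjusted p of 1.08e-09 to 0.0367). Over the 9 runs without the block the log2 fold change stayed between -2.93 and -2.05.

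The block model also called Itgb3 and Lamb3. Itgb3, the beta-3 chain that pairs with alpha-V, was higher at 35.6, 53.5 and 49.2 CPM in tdTomato-positive against 23.3, 20.0 and 29.1 CPM in tdTomato-negative libraries (block log2 fold change 0.93; edgeR adjusted p = 0.0353, and 0.178 without the block). Lamb3 encodes the beta-3 chain of laminin-332, the ligand of integrin alpha-6/beta-4. It had 6, 1 and 1 reads in tdTomato-positive libraries against 18, 36 and 28 in tdTomato-negative ones (edgeR adjusted p = 0.0223 with the block and 0.0758 without it). Both block calls were lost on omitting mouse 2 (edgeR adjusted p = 0.178 for Itgb3 and 0.148 for Lamb3) or mouse 3 (0.376 and 0.435). The block log2 fold changes were then 0.69 and 1.017 for Itgb3. For Lamb3 they were -2.996 and -3.168, against -3.616 with all mice. Lama3, which encodes the alpha-3 chain of laminin-332, was not called, at 105, 159 and 86.4 CPM in tdTomato-positive against 99.7, 81.6 and 77.0 CPM in tdTomato-negative libraries. Itgb1 averaged 191 ± 47.8 CPM in tdTomato-positive and 188 ± 13.0 CPM in tdTomato-negative libraries (± SD over 3 libraries a group; by edgeR, adjusted p = 0.976).

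EpCAM partners and relatives gave no edgeR call among 8 tested, with 5 at an unadjusted p under 0.05; DESeq2 and the block model called Tspan8. Tspan8, a tetraspanin, had 13, 3 and 18 reads in tdTomato-positive libraries against 35, 43 and 47 in tdTomato-negative ones (block log2 fold change -2.26; edgeR adjusted p = 0.038, and 0.196 without the block). Omitting mouse 2 or mouse 3 ended the block call (edgeR adjusted p = 0.191 and 0.368), with block log2 fold changes of -1.646 and -2.663. St14, the serine protease matriptase, averaged 49.5 ± 10.3 CPM against 31.6 ± 7.46 CPM (± SD over 3 libraries a group; by edgeR, adjusted p = 0.393).

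Since beta-catenin also carries the Wnt signal, 21 genes of that pathway were listed, of which 16 were tested. Without the block edgeR called none, with 5 at an unadjusted p under 0.05, while DESeq2 and the block model each called 3. Ccnd1, the cyclin D1 gene, was higher at 63.3, 60.6 and 41.1 CPM in tdTomato-positive against 29.9, 20.4 and 25.0 CPM in tdTomato-negative libraries (block log2 fold change 1.12; edgeR adjusted p = 0.00852, and 0.0768 without the block). Znrf3, a ligase that removes Wnt receptors, was lower at 8.78, 16.3 and 6.99 CPM against 41.3, 28.8 and 20.3 CPM (block log2 fold change -1.52; edgeR adjusted p = 0.0107, and 0.15 without the block). Nkd1, a feedback inhibitor of Wnt signalling, had 0, 0 and 3 reads in tdTomato-positive against 26, 17 and 40 in tdTomato-negative libraries (edgeR adjusted p = 0.00457 with the block and 0.0512 without it). Axin2, a common readout of beta-catenin signalling named after its values were seen, was at 1.69, 0.949 and 3.81 CPM against 1.75, 2.88 and 7.41 CPM and was not called in either model. The 3 genes called with the block are 1 higher and 2 lower, and the median log2 fold change of the 16 was 0.10. Without mouse 3 the block model called none of the 3 (edgeR adjusted p = 0.137 for Ccnd1, 0.297 for Znrf3 and 0.199 for Nkd1). Their log2 fold changes in that run were 1.32, -1.51 and -7.55, against 1.12, -1.52 and -5.08 with all mice. Over the whole table that run called 59 genes, against 415 with all mice.

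**Figure D4:**
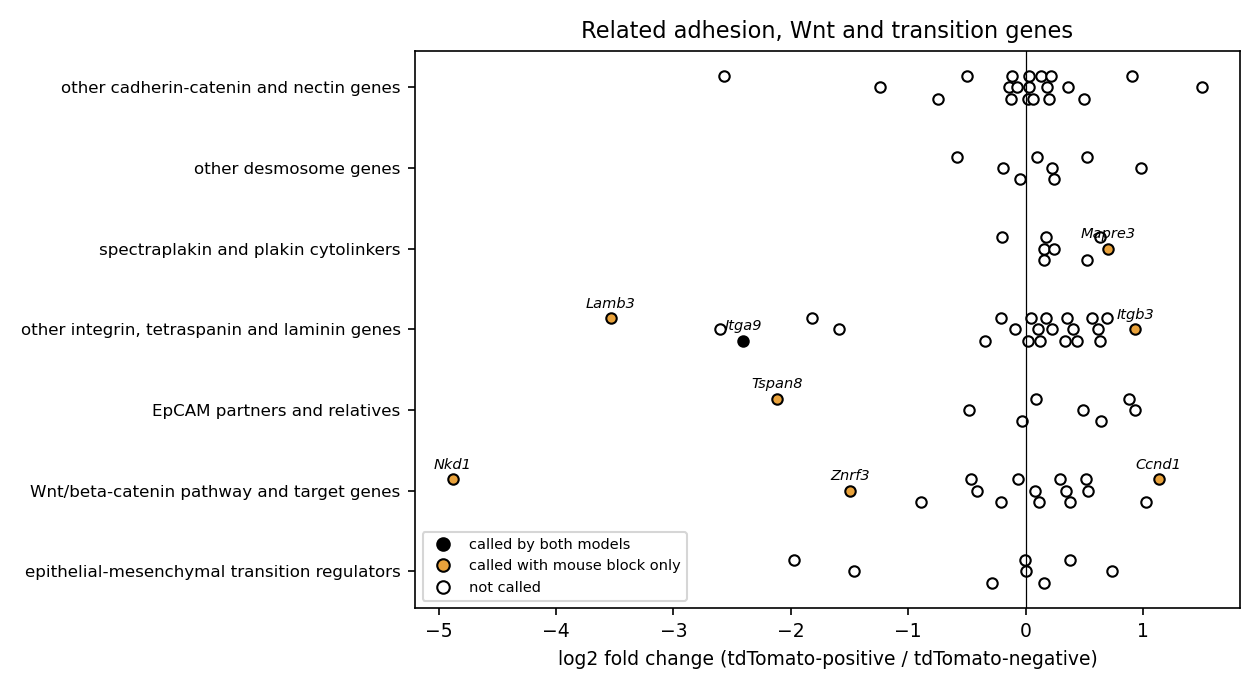
Log2 fold change (tdTomato-positive over tdTomato-negative) of every tested gene in 7 related lists, 1 point per gene, with gene names for those called. Itga9 is the only gene called in both models (black); 7 more were called only with the mouse as a block (orange).

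Over the 7 lists, 89 genes were tested and edgeR called 1, against 8 with the block and 6 by DESeq2. Of all 13175 genes edgeR called 0.622%, against 3.15% with the block and 245 genes by DESeq2. Whether the lists held more calls than all genes was not tested. The share of all genes at an unadjusted p under 0.05 is not reported here, so counts at that level are descriptions only. Regulators of epithelial-mesenchymal transition gave no edgeR call among 8 tested, with 1 at an unadjusted p under 0.05; DESeq2 and the block model called 0. Vim (vimentin) was at 16.4, 27.7 and 7.94 CPM in tdTomato-positive against 57.0, 79.1 and 6.83 CPM in tdTomato-negative libraries. Zeb2, a repressor of Cdh1, was at 2.36, 8.39 and 4.29 CPM against 24.6, 31.1 and 3.71 CPM. Both were lower in mice 1 and 2 only, and the summed leukocyte markers, which include Ptprc, followed the same mice at 16.0, 25.8 and 7.30 CPM against 59.4, 84.3 and 8.38 CPM. The part of leukocyte RNA in these values was not tested. Snai1, Snai2, Twist1 and Twist2 were too low to test.

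Markers of some other cell types also differed between the fractions. All 10 multiciliated cell markers were detected, at a sum of 5540 to 6410 CPM in tdTomato-positive and 5070 to 5230 CPM in tdTomato-negative libraries. Without the block edgeR called none of them, and with it 3 were higher (Foxj1, Tppp3 and Cfap126; edgeR adjusted p = 0.000129, 0.000729 and 0.0301). All 10 alveolar type 2 markers were lower in tdTomato-positive libraries, and edgeR called 6 of them without the block and 8 with it. The 8 club cell markers summed to 6300 to 19900 CPM against 3270 to 6410 CPM, with none called by edgeR without the block and 5 higher with it. The 8 markers of basal cells had the sums given with Dst. Of these, Trp63, Aqp3, Krt17 and Pdpn had no read in any tdTomato-positive library, and Krt14 and Pdpn none in any tdTomato-negative one. In tdTomato-negative libraries Trp63 had 22, 58 and 48 reads, Aqp3 2, 1 and 5 and Krt17 0, 4 and 4. Trp63, 1 of 2 basal markers tested, was called lower in both models (edgeR adjusted p = 0.00693, and 0.000236 with the block). The 8 alveolar type 1 markers summed to 196 to 282 CPM against 211 to 263 CPM, the 8 endothelial markers to 11.8 to 28.2 against 11.1 to 16.7 CPM, and the 8 mesenchymal markers to 1.59 to 32.9 against 17.4 to 64.4 CPM. Of 7 alveolar type 1 markers tested, edgeR called none without the block and 1 with it, Ager, lower (edgeR adjusted p = 0.0135). Ptprc, 1 of 2 leukocyte markers tested, was called lower with the block only (edgeR adjusted p = 0.00502, and 0.41 without it). Pdpn and Cldn5 had no read in any library. Coro1a (10, 0 and 0 reads in tdTomato-negative libraries), Lst1 (0, 0 and 1) and Lum (0, 1 and 0) had none in any tdTomato-positive one. The part of these cell types in the values of Itgb4, Jup, Itga9 and Lamb3 was not tested.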

How the data were processed

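Per the labels' protocols, RNA of the 6 sorted samples was amplified with an Ovation V2 kit before TruSeq Nano library preparation. For each library the authors deposited a table of read counts by gene, not normalized. GRCm38.p4 and mm10 are the builds in the submitters' processing notes, which list STAR 2.4.2a and cutadapt 1.7.1 beside HTSeq, FastQC and DESeq2. Summary rows (5 a table) entered neither library sizes nor tests. In them, reads in no gene made up 41.0% to 49.4% of the reads in the tables, ambiguous reads 1.31% to 1.99% and reads aligned to several places 8.26% to 12.03%. The strand setting is not given in the sources used here.

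Counts were filtered (filterByExpr, count minimum 10), scaled with TMM factors and tested over the whole table by edgeR 4.0.16 in R 4.3.3 (robust quasi-likelihood fit, two-sided), with Benjamini-Hochberg adjusted p under 0.05 called over 13175 genes. The labels give both libraries of a pair the same mouse, so the numbers pair the samples. Deviations from group means of the 2 libraries of a mouse correlated across genes at 0.263, 0.254 and 0.346. The model without the mouse is the main one, and the model with it as a replicate block is given where it changes a call. Within-mouse log2 ratios used CPM plus 0.5. DESeq2 1.42.0, limma-voom (limma 3.58.1), other scalings and filters, and runs without 1 library or 1 mouse were alternatives. Both edgeR models were run on simulated data without a mouse effect and with larger differences than those of Itgb4 and Jup. Such data cannot test the pairing, and the outcome is not reported here. Floors (3 counts) cover counting error only, since amplified reads are not independent molecules. P-values of the model without the mouse rest on the spread among libraries of a fraction, as if all libraries were independent. Those of the block model rest on the spread left after the mouse and the fraction are fitted. In both models edgeR also draws the spread of each gene toward a trend over all genes. The block p-values therefore do not measure the spread over these 3 mice alone.

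The members and gene lists were chosen with earlier results of these data known. Genes named from the lists were those called in either edgeR model and the 2 with the smallest p in each list; others are named as background or as chosen after their values were seen. Positions and exon lengths come from GENCODE M21 (GRCm38), and sequences from RefSeq (GRCm38.p6). Some genes of the lists are not reported here.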

Additional observations from a re-analysis of the deposited data

How the results depend on the processing

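The number of genes called by edgeR over the whole table was 82, and it was within 1.5 times that with DESeq2 size factors (82), library size only (76), a stricter filter (60) and limma-voom (78). It was 413 with no filter, 245 with DESeq2 and 415 with the mouse as a replicate block. The calls were 6 higher and 76 lower, against 22 and 54 with library size only, 167 and 246 with no filter, 56 and 189 with DESeq2 and 179 and 236 with the block. The count was 47 to 113 without 1 tdTomato-positive library, 34 to 43 without 1 tdTomato-negative library, 22 to 30 without 1 mouse, and in the block model 633, 380 and 59 without mouse 1, 2 and 3. Of the 9 genes other than Dst, edgeR called 0, no filter or DESeq2 1 (Itgb4), and the block 2 (Itgb4 and Jup). Counts over all 10 include Dst, which was chosen by its fall, so its share of them is no test: 1 without the block, 0 with library size only, 2 with no filter or DESeq2 and 3 with the block. Omitting a tdTomato-positive library gave 1 to 2, a tdTomato-negative library 0 to 1, a mouse 0, and a mouse from the block model 0 to 3. In the related lists edgeR called 1 gene, 9 with no filter, 6 with DESeq2 and 8 with the block. Omitting a tdTomato-positive library gave 0 to 2, a tdTomato-negative library or a mouse 0, and mouse 1, 2 and 3 from the block model 13, 5 and 1.

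Only log2 fold changes near 0 changed sign among the 10 genes. With library size only, Col17a1 was at 0.154 and Dsp at 0.139. Omitting a tdTomato-positive library gave -0.924 to 0.396 for Col17a1, -0.137 to 0.189 for Ctnna1, -0.098 to 0.247 for Ctnnb1 and -0.302 to 0.039 for Dsp. Omitting a tdTomato-negative library gave -0.188 to 0.071 for Col17a1, -0.015 to 0.086 for Ctnna1 and -0.238 to 0.078 for Dsp. Omitting a mouse gave -1.068 to 0.392 for Col17a1 (-1.196 to 0.318 in the block model), -0.105 to 0.128 for Ctnna1 (-0.105 to 0.099) and -0.035 to 0.266 for Ctnnb1 (-0.032 to 0.253). The cause was not tested. Depth limits Col17a1, at 3 to 23 reads a library, which could not be fitted under the stricter filter or without mouse 3.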
